A study of Mus musculus with 2 samples.

Results

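Heat shock proteins and other chaperones were followed gene by gene through the cell classes of a mouse pancreatic tumor, in 2 single-cell RNA libraries. The group held 38 genes, found by symbol among the 32285 genes counted: 27 chaperones, co-chaperones and regulators of the cytosol and nucleus, 3 of mitochondria and 8 of the endoplasmic reticulum (ER). They took up 1.49% of all unique molecules (UMIs) of kept barcodes in the flox library and 0.917% in the library labelled MCT1-KO. The genes were chosen by name, with their UMI levels in these same libraries known, so every difference between the libraries given here is a description and none was tested.

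Both libraries came from tumors that grew after KPC cells, a mouse pancreatic cancer line, were injected into the pancreas of adult C57BL/6 mice. The flox library came from MCT1 fl/fl animals, in which parts of Slc16a1, the gene of the lactate transporter MCT1, lie between loxP sites. The library labelled MCT1-KO came from Col1a2-CreERT2-MCT1-/- animals, in which a tamoxifen-inducible Cre under the Col1a2 promoter acts in fibroblast-like cells such as pancreatic stellate cells. The methods give tamoxifen injections before implantation, and a figure legend gives tamoxifen or corn oil without saying which group got which. Each group was 1 library, and the labels do not say how many animals were pooled. Slc16a1 had 102 UMIs (35.7 CPM, counts scaled to a total of 1000000) in flox fibroblasts and 91 UMIs (36.1 CPM) in those of the library labelled MCT1-KO. The position of the deleted part is not given in the sources used here, so counts from the 3′ end could not check the genotype.

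Chaperones bind unfolded protein and help it fold. HSP70 proteins hold short unfolded stretches and are driven by J-domain proteins, while HSP110 proteins and BAG proteins exchange their nucleotide. HSP90 proteins act later, on nearly folded clients, with a set of co-chaperones. Under heat or other protein damage the transcription factor HSF1 binds heat shock elements, arrays of the letters GAA and TTC, and raises the inducible members such as Hspa1a. ER chaperones are raised instead by the unfolded protein response, through a separate promoter element (ERSE).

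Promoters of 6 members are shown here as examples that hold these elements. Dnajb1 and Bag3, also among the members described below, held none of the elements searched, and are not shown. All are from RefSeq on build GRCm38.p6, written 5′ to 3′ on the strand of the gene, and capitals mark the element. For Hspa1a and Hspa1b the 250 bases before the gene start are given, at chr17:34972157-34972406 and chr17:34959239-34959488 on the minus strand.
Hspa1a: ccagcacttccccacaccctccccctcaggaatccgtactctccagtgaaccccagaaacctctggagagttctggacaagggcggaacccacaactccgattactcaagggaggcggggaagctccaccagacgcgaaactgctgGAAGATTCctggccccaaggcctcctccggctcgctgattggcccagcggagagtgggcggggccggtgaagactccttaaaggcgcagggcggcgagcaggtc
Hspa1b: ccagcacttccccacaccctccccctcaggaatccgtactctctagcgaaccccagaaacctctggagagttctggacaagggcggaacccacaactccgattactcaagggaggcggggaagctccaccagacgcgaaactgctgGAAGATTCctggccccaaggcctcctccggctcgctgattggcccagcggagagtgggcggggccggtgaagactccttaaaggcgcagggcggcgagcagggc
The 2 stretches were identical at 247 of 250 positions, and each held a GAANNTTC pair that began 104 bases before the gene start. For the others 30 bases around the element are given, for Hsph1 at chr5:149636351-149636380 (minus strand), Hspe1 at chr1:55088050-55088079 (plus), Hspa5 at chr2:34772019-34772048 (plus) and Hsp90b1 at chr10:86705633-86705662 (minus). In the GENCODE annotation Hsph1 and Hspa5 start further upstream than in RefSeq. There most of the Hsph1 stretch and all of the Hspa5 stretch lie inside the gene.
Hsph1: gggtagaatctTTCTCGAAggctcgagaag
Hspe1: cacggtccgTTCTAGAACCTTCCGGAAggc
Hspa5: acttcaCCAATCGGAGGCCTCCACGacggg
Hsp90b1: acaagcCCAATCGCAAGGAGCCACGcttcg

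Of the 38 members, 30 had a promoter in the table. An inverted pair, GAANNTTC or TTCNNGAA (each reads the same on both strands), lay in the 250 bases of at least 1 promoter of 10 of these 30 genes and of 14.5% of all 27025 genes. Counted by promoter, 12 of 38 windows of members and 12.8% of all 32851 windows held it. The 10 were Hspa1a, Hspa1b, Hsph1, Hspb1, Fkbp4, Dnaja1, Dnajb4, Dnajb6, Hspd1 and Hspe1. A longer form, GAANNTTC followed by NNGAA, contains the pair and was searched on both strands. It was found in Hspd1, Hspe1 and Dnajb6 and in 0.514% of all genes (0.466% of promoters). Hspd1 and Hspe1 overlap head to head in GENCODE, and the Hspe1 stretch shown above lies inside Hspd1 there. Their matches, for this form and for the pair, may therefore be the same element counted for both genes. The ERSE, CCAAT and CCACG with 9 bases of any kind between them, searched on both strands, was found in Hspa5, Hsp90b1 and Dnajc3 and in 0.13% of all genes (0.113% of promoters). A match is a description of letters, not of binding.

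A barcode was kept if it held 500 UMIs or more, if between 200 and 5000 genes were detected, and if mitochondrial genes gave up to 8% of its UMIs. This left 8739 barcodes with 61149689 UMIs in the flox library (median 4069) and 11689 with 81494894 UMIs in the library labelled MCT1-KO (median 3706). Barcodes with 500 UMIs or more numbered 11882 and 13454, so the limits on genes and mitochondrial share removed more of them in flox. The kept barcodes of the libraries shared 59 sequences, which were kept in both. Marker genes gave 6 main classes: tumor cells (2179 flox and 4129 MCT1-KO barcodes), macrophages (2313 and 1975), T/NK cells (503 and 429), fibroblasts (232 and 301), neutrophils (708 and 678) and endothelial cells (97 and 111). No member served as a marker. In macrophages the summed macrophage markers were at 26238 and 25641 CPM. In tumor cells the summed tumor markers were at 2231 and 2373 CPM, but Cdkn2a and Sfn were under 2 CPM. The tumor markers also summed to 1518 and 1200 CPM in endothelial cells and 973 and 691 CPM in fibroblasts. Barcodes left unclassified had 1385 and 1253 CPM of them. The same markers defined the classes, so these levels are no independent check. Free RNA was read from barcodes of 10 to 100 UMIs, with a median of 20 and 18 UMIs. Acinar markers, which these 6 classes should lack, ranged from 43.3 to 211 CPM in flox and from 792 to 4952 CPM in the other library. Malat1, a nuclear RNA, was higher in flox in each of the 6 classes (7761 to 19632 against 5208 to 14812 CPM).

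A gene's level is its UMIs over all UMIs of the class, in CPM, and a ratio is the flox level over the MCT1-KO level. Intervals are 95% counting intervals (exact Poisson for levels, conditional exact for ratios, Clopper-Pearson for shares). They cover counting error only and not differences between animals or tumors, nor, for levels and ratios, differences between barcodes of a class. CPM here is not per transcript length, so levels are compared between libraries and classes and not between genes, apart from the order of UMIs.

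Summed over all 38 genes, the level was 17804 CPM in flox and 10131 CPM in MCT1-KO tumor cells, a ratio of 1.76 (1.75 to 1.76). Macrophages stood at 10571 and 5287 CPM, with the largest ratio of the main classes at 2.00 (1.98 to 2.02). Endothelial cells had a ratio of 1.66 (1.60 to 1.73), T/NK cells 1.65 (1.61 to 1.69) and fibroblasts 1.60 (1.57 to 1.62). Neutrophils stood apart, with 5004 and 4385 CPM and a ratio of 1.14 (1.10 to 1.19). The neutrophil class was the shallowest, with a median of 1481 and 1084 UMIs. Free RNA itself held 10143 and 5941 CPM, a ratio of 1.71 (1.70 to 1.72).

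The barcodes of a class were not alike in the libraries. In a clustering made without the 38 genes, cluster 3 held 62.6% of flox tumor cells and 2.49% of those labelled MCT1-KO, while clusters 2 and 6 held 7.39% and 8.03% against 50.4% and 27.5%. Macrophages were divided between cluster 1 (74% and 44.9%) and cluster 4 (15.1% and 49.4%), and cluster 3, named for tumor markers, held 20.7% of flox fibroblasts against 1.99%. Within a cluster, where each library had at least 50 barcodes of the class, the summed ratio of tumor cells was 1.91 in cluster 3, 1.5 in cluster 2, 1.15 in cluster 6, 1.75 in cluster 5 and 1.8 in cluster 7, and that of macrophages was 2.16 in cluster 1, 1.4 in cluster 4 and 1.72 in cluster 15. In tumor cells Hsph1 was from 5.48 (cluster 6) to 21.6 (cluster 5, 200 and 36 UMIs) times higher in flox, and Dnajb1 from 2.04 (cluster 6) to 6.15 (cluster 3) times. Clusters 5 and 7 were left unclassified as whole clusters, with medians of 1142 and 1308 UMIs. Clusters 2, 3 and 6, named for tumor markers, had medians of 14955, 17888 and 17161 UMIs. Among these the highest Hsph1 ratio was 8.89 (cluster 3). In macrophages Hspa1a was from 3.28 (cluster 4) to 10.2 (cluster 15) times higher. Hspe1 and Hsp90aa1 were not past 2-fold in every cluster. Hspe1 was at 1.49 and 1.4 in clusters 4 and 15 of macrophages and 1.68 in cluster 11 of fibroblasts, Hsp90aa1 was at 1.95 in cluster 4 of macrophages, and both were under 1.5 in cluster 6 of tumor cells. Cluster 7 held no Hsph1 UMI in its 53 MCT1-KO tumor cells and gives no ratio. Neutrophils had no cluster with 50 barcodes of each library. Cluster 9 held 94.9% of flox and 1.03% of MCT1-KO barcodes and cluster 10 held 3.25% and 94.5%, so their ratios compare different clusters. These within-cluster values were added after seeing the data. T/NK cells lay almost wholly in cluster 8 in both libraries (96.2% and 97.4%), where the ratio was 1.65.

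The spread over barcodes, from the 10th to the 90th percentile, was wider in flox in the main classes other than neutrophils (1774 to 7041 against 1036 to 6435 CPM). In flox tumor cells the summed level ran from 8927 CPM at the 10th percentile through a median of 14949 to 28199 at the 90th, while in the other library it ran from 6828 through 9794 to 12622. Flox macrophages ran from 5164 through 9374 to 18822 CPM, and those labelled MCT1-KO from 3326 through 5094 to 7428. The flox median lay above the 90th percentile of the other library in tumor cells and macrophages. It also did so in T/NK cells (9806 against 8818 CPM), but not in fibroblasts (12506 against 13600), endothelial cells (10702 against 11257) or neutrophils (3805 against 6435).

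**Figure D1:**
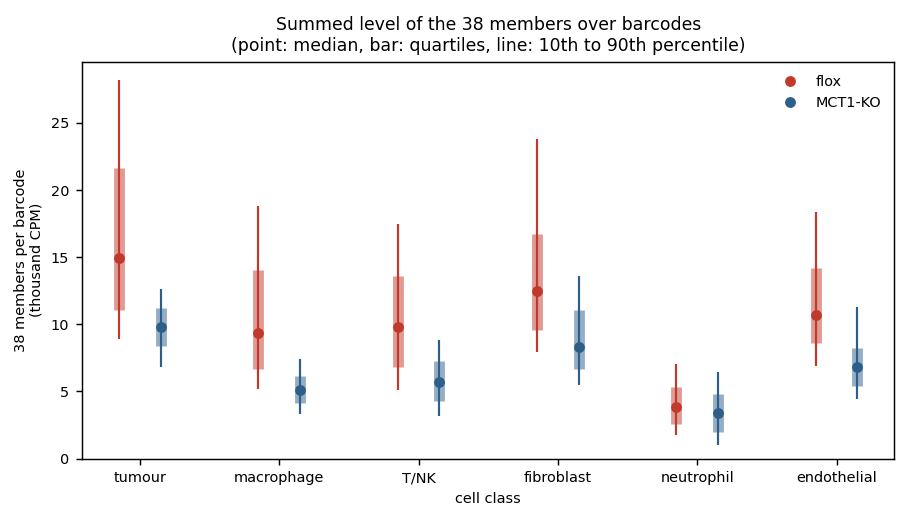
Summed level of the 38 members per barcode, in units of 1000 CPM, for the 6 main classes in the flox and MCT1-KO libraries. Points are medians, bars quartiles and lines the 10th to 90th percentile. The flox median of tumor cells, 14949 CPM, lies above the MCT1-KO 90th percentile of 12622 CPM, and neutrophils overlap almost fully.

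By compartment, the cytosolic sum was higher in flox by 1.72-fold (1.71 to 1.73) in tumor cells and 2.14-fold (2.11 to 2.16) in macrophages, and by 1.13-fold (1.08 to 1.18) in neutrophils. The 3 mitochondrial genes together had ratios from 1.75 in neutrophils to 2.57 (2.53 to 2.60) in tumor cells. With free RNA subtracted by acinar markers the mitochondrial ratio stayed at 2.57 in tumor cells but was 1.02 in macrophages and 0.119 in neutrophils. ER chaperones ranged from 1.06 (0.964 to 1.16) in neutrophils to 1.69 (1.63 to 1.76) in fibroblasts, and the same subtraction took the neutrophil ratio to 0.316 and the cytosolic one to 0.404. Beside the main classes, dendritic cells and B cells had ER ratios of 1.36 and 1.39. Plasma cells had an ER sum that was lower in flox, at 4987 against 7022 CPM, a ratio of 0.710 (0.667 to 0.756). Their cytosolic and mitochondrial sums were higher in flox, at 3.21 (2.97 to 3.48) and 3.3 (2.62 to 4.18). Of the 32 and 57 plasma barcodes, 13 in each library also met a second class. Acinar cells, with only 18 flox barcodes, also had a lower ER sum in flox, at 523 and 969 CPM (0.539, 0.355 to 0.789). So had the 1 flox barcode of duct and islet (0.658, 0.389 to 1.05). The medians over the 6 main classes were 1.68 for cytosol, 1.85 for mitochondria and 1.55 for ER.

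**Figure D2:**
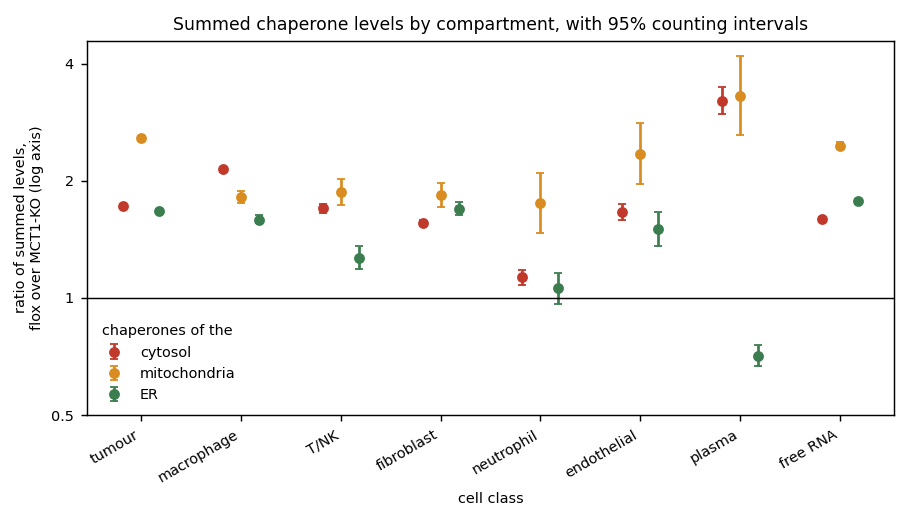
Ratio of summed levels, flox over MCT1-KO, on a log axis, for cytosolic, mitochondrial and ER chaperones in 7 classes and in free RNA, with 95% counting intervals. All points of the main classes lie above 1, neutrophils lie lowest, and the ER point of plasma cells lies at 0.710.

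Single members were counted as past the fold at a ratio of at least 2, among genes with at least 50 UMIs in the class over both libraries. In tumor cells all 38 members met that minimum, and 9 were at least 2-fold higher in flox, against 1.94% of all 13355 genes. Only Hspb1 was at least 2-fold higher in the library labelled MCT1-KO, where 2.33% of all genes were. In macrophages 11 of 37 members passed in flox (3.26% of all genes) and 0 in the other direction (1.93%). T/NK cells had 9 of 32 in flox (2.72% of all genes) and 0 in the other (1.31%). In fibroblasts 11 of 37 passed in flox (4.01%), or 7 with classes from clusters, and 0 in the other (3.71%). Neutrophils had 4 of 30 in flox (3.92%) and 0 in the other (3.49%), and these 4 became 0 with free RNA subtracted by acinar markers, 1 with the collagen genes and 1 at a minimum of 200 UMIs. Endothelial cells had 9 of 29 in flox (3.71%), or 5 at a minimum of 200 UMIs, and 0 in the other (2.21%).

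At a fold of 1.5 the members higher in flox numbered 18 in tumor cells (6.31% of all genes), 21 in macrophages (9.79%), 16 in T/NK cells (9.5%) and 20 in fibroblasts (12.9%). Neutrophils then had 7 (10.2%) and endothelial cells 14 (13.1%). The median ratio over members was 1.38 in tumor cells, 1.54 in macrophages, 1.49 in T/NK cells, 1.51 in fibroblasts, 1.06 in neutrophils and 1.45 in endothelial cells. Over all genes with 50 UMIs the medians were 0.982, 1.01, 1.02, 1.05, 0.929 and 1.04. Since the members were chosen with this contrast known, nothing is read from their excess over the background.

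**Figure D3:**
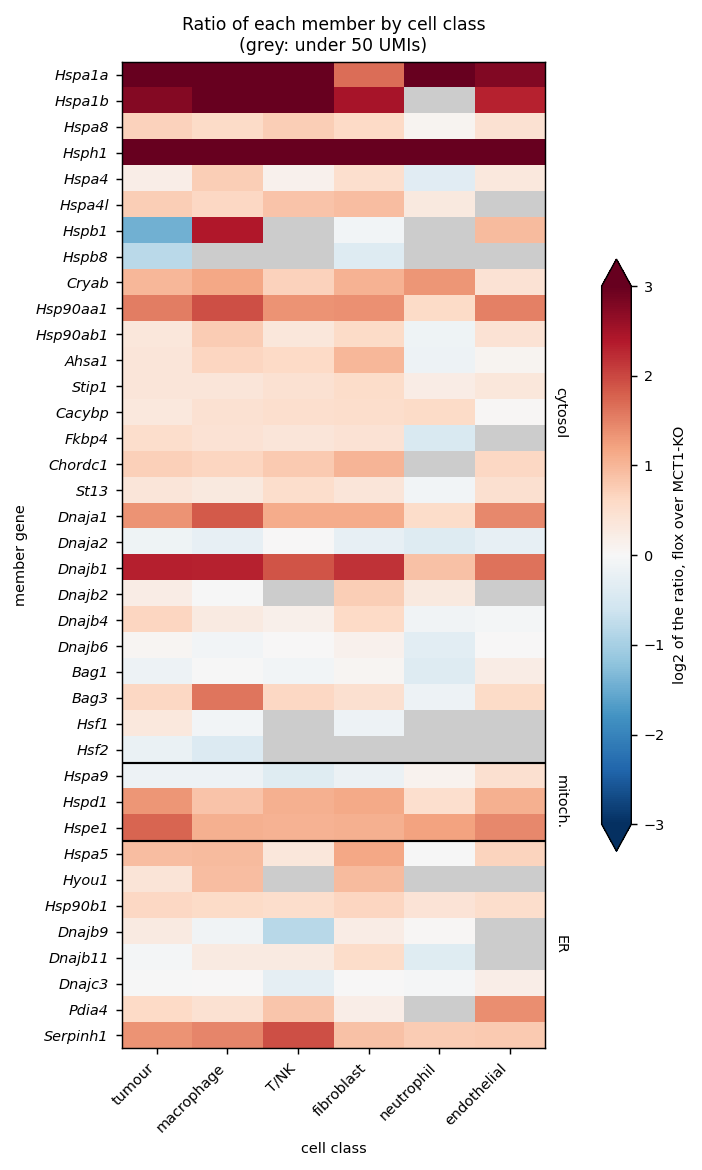
Log2 of the ratio, flox over MCT1-KO, of each of the 38 members (rows) in the 6 main classes (columns). Grey cells had under 50 UMIs. Red rows at Hspa1a, Hspa1b, Hsph1, Hsp90aa1, Dnaja1, Dnajb1, Hspd1 and Hspe1 cross most classes, and Dnaja2, Dnajb6, Bag1 and Hspa9 stay pale.

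The members fell into few that differed in every class and many that did not. Of the 25 members with 50 UMIs in all 6 classes, 3 were at least 2-fold higher in flox in each of them (Hspa1a, Hsph1 and Hspe1), and 14 in none. Of all 2799 genes with 50 UMIs in all 6 classes, 0.143% passed in each and 93.9% in none. None of the 3 kept this in all 6 classes once free RNA was subtracted by acinar markers. Hspa1a was then lost in tumor cells and neutrophils and Hsph1 in neutrophils, where no flox UMIs were left, and Hspe1 fell to 0.867 in macrophages, 1.28 in T/NK cells and 1.5 in fibroblasts. Subtraction scaled by collagen genes instead, in the immune classes, left Hspa1a at 6.55 and Hsph1 at 9.15 in neutrophils and Hspe1 at 1.88 in macrophages, 1.94 in T/NK cells and 1.36 in neutrophils. Hspb1 in flox neutrophils lay at 0.0703 of free RNA, under the share of 62.6% that the acinar markers give there. Hspa1b passed in all 5 classes where it had enough UMIs, and Hsp90aa1, Dnaja1 and Dnajb1 passed in 5 of 6, with neutrophils the exception. After the acinar-scaled subtraction no Dnajb1 was left in flox macrophages or T/NK cells, 2 of its 5 classes. With classes from clusters Hsp90aa1 fell to 1.95 in fibroblasts and 1.91 in endothelial cells, Dnaja1 to 1.91 in both, and Dnajb1 to 1.92 in endothelial cells.

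Hspa1a encodes the stress-inducible HSP70 and lies at 17:34969190-34972156 (GRCm38, minus strand), with a single exon. Its level was 1090 CPM in flox macrophages (15873 UMIs) and 120.5 CPM in those labelled MCT1-KO (1199 UMIs), a ratio of 9.05 (8.53 to 9.60). T/NK cells had 496 and 23.7 CPM, or 1033 and 34 UMIs, a ratio of 21.0 (14.9 to 30.5). Endothelial cells followed at 564 and 82.3 CPM (6.85, 4.91 to 9.79), and fibroblasts at 284 and 88.5 CPM (3.21, 2.76 to 3.74). Neutrophils had 75.9 and 8.88 CPM, the latter from 8 UMIs. Flox was the higher library in each class, and macrophages held 72.5% of its Hspa1a UMIs.

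Tumor cells had little Hspa1a. Their level was 26.8 CPM in flox and 2.61 CPM in the other library, only 0.106 and 0.130 of the free RNA level of the same library (253 and 20.1 CPM). The ratio was 10.3 in tumor cells and 12.6 in free RNA. Macrophages lay at 4.32 and 5.99 times the free RNA level, T/NK cells at 1.97 and 1.18 times.

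Hspa1b, its neighbour 9951 bases away at 17:34956436-34959238, encodes a nearly identical HSP70. Tumor cells held mostly UMIs of this copy. Hspa1a was 16.6% (15.6 to 17.7) of the UMIs of the pair in flox tumor cells and 11.6% (9.95 to 13.5) in the other library. In macrophages Hspa1a was 87.3% (86.8 to 87.8) and 95.1% (93.7 to 96.2), and in T/NK cells 81.9% and 77.3%. Hspa1b stood at 134 CPM in flox and 19.8 CPM in MCT1-KO tumor cells, a ratio of 6.79 (6.36 to 7.25). In macrophages it was at 158 and 6.23 CPM, the latter from 62 UMIs, a ratio of 25.4 (19.7 to 33.2). Hspa1b lay near the free RNA level. Over the 5 classes with enough UMIs it was at 0.915 (T/NK cells) to 1.32 (macrophages) times that level in flox. In the other library it was at 0.413 (macrophages) to 1.82 (endothelial cells) times. Of 60-base windows of the Hspa1a transcript, 56.3% also occur in Hspa1b, but none of those in its last 500 bases, where 3′ reads tend to lie. How the counting step treated reads that match both copies is not given in the sources used here, so the split between them is uncertain.

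Hspa8, the constitutive HSP70 and among the most counted members, differed less. It had 2171 and 1346 CPM in tumor cells (1.61, 1.60 to 1.63) and 1842 and 1226 CPM in macrophages (1.5, 1.47 to 1.53). In neutrophils it was at 679 and 643 CPM, with an interval of the ratio that held 1 (0.949 to 1.17).

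Hsph1, the inducible HSP110, had ratios of 9.43 to 19.6 over the 6 classes. It stood at 357 and 31.8 CPM in tumor cells (11.2, 10.7 to 11.8), 247 and 13.3 CPM in macrophages (18.6, 15.6 to 22.3), and 373 and 35.5 CPM in T/NK cells (10.5, 7.92 to 14.3). Fibroblasts had 191 and 20.2 CPM. In neutrophils and endothelial cells the library labelled MCT1-KO held 5 and 4 UMIs, so the intervals of those ratios, 10.5 (4.31 to 33.2) and 19.6 (7.42 to 73.1), are wide, and the flox UMIs of neutrophils did not outlast the acinar-scaled subtraction. The other HSP110 genes did not show this size of difference. Hspa4 had ratios of 0.791 to 1.68 and Hspa4l of 1.23 to 1.90 over the classes with enough UMIs.

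Among J-domain proteins, which deliver substrates to HSP70, Dnajb1 and Dnaja1 differed more than the other cytosolic members of that family. Dnajb1, a classical HSF1 target, had 1025 and 203 CPM in tumor cells (5.05, 4.95 to 5.16) and 846 and 188 CPM in fibroblasts (4.50, 4.08 to 4.98). In macrophages its 245 and 49.6 CPM were 0.323 and 0.298 of the free RNA level, and in T/NK cells its 252 and 68.2 CPM were 0.333 and 0.410 of it. Dnaja1 had 467 and 184 CPM in tumor cells (a ratio of 2.54) and 277 and 77.7 CPM in macrophages (3.57). Dnaja2 had ratios of 0.771 to 1.01 and Dnajb6 of 0.801 to 1.09, although the promoter of Dnajb6 held the longer heat shock element. Dnajb2 ranged from 0.987 to 1.68 and Dnajb4 from 0.937 to 1.57.

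**Figure D4:**
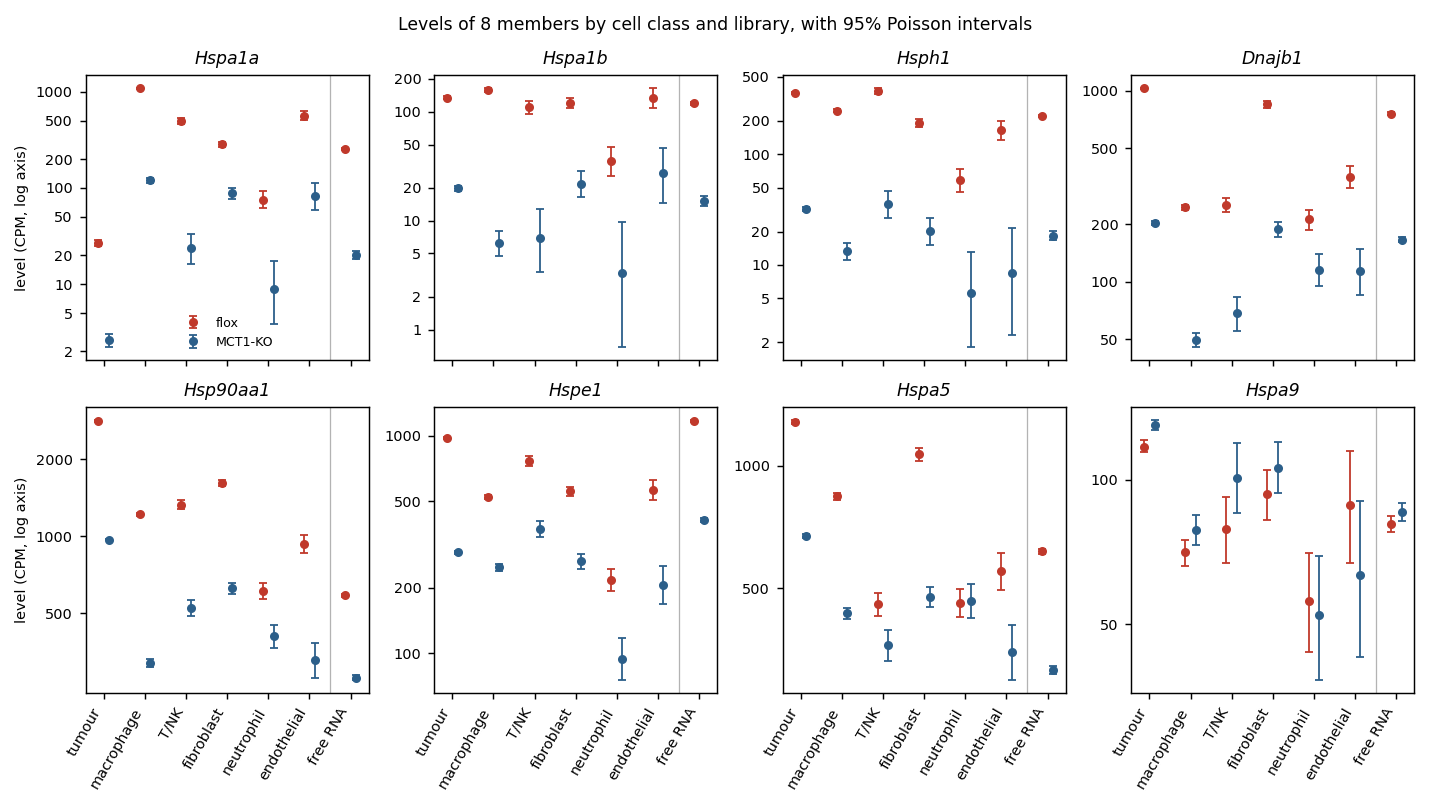
Levels in CPM, on log axes, of 8 members in the 6 main classes and in free RNA, with 95% Poisson intervals. Hspa1a is highest in flox macrophages (1090 CPM) and lowest in tumor cells, Hsph1 differs in every class, and the Hspa9 points of the libraries lie close together.

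Of the cytosolic HSP90 genes, the inducible Hsp90aa1 differed more than the constitutive Hsp90ab1. Hsp90aa1 stood at 2830 and 971 CPM in tumor cells (2.92, 2.89 to 2.95) and at 1218 and 319 CPM in macrophages (3.82, 3.68 to 3.97). Its lowest ratio was 1.5 (1.33 to 1.70), in neutrophils. Hsp90ab1, which had the most UMIs of all members in flox tumor cells (4593 and 3632 CPM), ranged from 0.914 to 1.69. Of the 6 HSP90 co-chaperones, Chordc1 in fibroblasts (2.04) was the only one past 2-fold in flox where it had 50 UMIs, and with classes from clusters it was at 1.55. The ATPase activator Ahsa1 ranged from 0.893 to 1.99, and the HSP70-HSP90 organizer Stip1 from 1.17 to 1.47. Cacybp ranged from 1.02 to 1.49, the immunophilin Fkbp4 from 0.729 to 1.45, and the HSP70-interacting St13 from 0.942 to 1.45. Of the BAG proteins, Bag3, a partner of small heat shock proteins in the disposal of damaged protein, was at 118 and 38.8 CPM in macrophages (a ratio of 3.03) but at 208 and 136 CPM in tumor cells (1.53). Bag1 ranged from 0.765 to 1.17. The heat shock factor genes themselves were low and close between libraries, with Hsf1 at 20.4 and 16.4 CPM and Hsf2 at 10.6 and 12.2 CPM in tumor cells.

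The small heat shock proteins, which hold unfolded protein without ATP, differed widely between cell types. Their sum was 2678 and 2513 CPM in fibroblasts but 48.1 and 24.4 CPM in T/NK cells, with 345 and 234 CPM in free RNA. It was close between libraries in fibroblasts only (1.07). The ratio was 1.8 in tumor cells, 1.86 in endothelial cells, 1.89 in neutrophils, 1.97 in T/NK cells and 3.64 in macrophages. Hspb1 was at 1951 and 2067 CPM in fibroblasts (0.944, 0.909 to 0.981, but 1.31 with classes from clusters) and at 1104 and 572 CPM in endothelial cells (1.93, 1.68 to 2.23). The fibroblast level was 22.4 and 24.5 times that of free RNA. In tumor cells Hspb1 had only 7.04 and 19.3 CPM (222 and 1122 UMIs), 0.0807 and 0.228 of free RNA, with a ratio of 0.366 (0.315 to 0.423). That direction turned to 1.59 when classes were taken from clusters instead of single markers. Hspb8 was found mainly in fibroblasts, at 113 and 148 CPM (0.759, 0.652 to 0.884), a direction that also turned, to 1.08, with classes from clusters. Cryab stood at 614 and 297 CPM in fibroblasts (2.07) and at 307 and 154 CPM in tumor cells (2.00, or 1.73 with no upper gene limit), where free RNA held 252 and 143 CPM.

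Of the mitochondrial chaperones, the chaperonin pair was higher in flox and the HSP70 was not in 4 of 6 classes. Hspd1 and Hspe1, which form the folding chamber HSP60 and its lid HSP10, lie head to head on chromosome 1, at 1:55077835-55088243 and 1:55088132-55091307. Hspe1 was at 974 and 292 CPM in tumor cells (3.34, 3.28 to 3.40), and from 2.06 to 2.72 times higher in flox in the other 5 classes. With free RNA subtracted it stayed at 3.3 in tumor cells and 2.31 in endothelial cells, and was under 2-fold or the other way in macrophages, T/NK cells and fibroblasts, as given above. Hspd1 had 367 and 147 CPM in tumor cells (2.50), 334 and 158 CPM in T/NK cells (2.11, or 1.92 thinned to 1000 UMIs) and 146 and 80.2 CPM in macrophages (1.82). Hspe1 was also abundant in free RNA, at 1165 and 409 CPM, above its level in any main class of the same library. Hspa9, the mitochondrial HSP70 that draws proteins into the matrix, was at 117 and 129.9 CPM in tumor cells (0.904, 0.869 to 0.941), and its ratios ran from 0.781 to 1.40. The further mitochondrial chaperones and proteases Trap1, Grpel1, Dnaja3, Lonp1, Clpp and Timm44 had a median ratio of 0.948 in tumor cells and 0.977 in macrophages, with none of the 6 past 2-fold in either, and Grpel1 was past it in endothelial cells (91.9 and 42.2 CPM, 2.18).

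In the ER, Hspa5 (BiP, the HSP70 of that compartment) had 1282 and 672 CPM in tumor cells (1.91, 1.88 to 1.94), 840.4 and 433 CPM in macrophages (1.94, 1.88 to 2.01) and 1068 and 476 CPM in fibroblasts (2.25, 2.10 to 2.40). In fibroblasts it was 1.93 with classes from clusters. In T/NK cells the ratio was 1.26 (1.13 to 1.41), or 0.895 with free RNA subtracted by acinar markers, and in neutrophils the interval held 1 (0.871 to 1.12). Hsp90b1 (GRP94) had narrow ratios of 1.33 to 1.57 over the main classes. Plasma cells, which secrete antibody, had the highest Hsp90b1 level and the opposite order, with 2393 CPM in flox (32 barcodes) and 4301 CPM in the other library (57 barcodes), a ratio of 0.556 (0.510 to 0.606). Pdia4, a disulfide isomerase, and Dnajc3, a J-domain partner of BiP, had ratios of 0.740 (0.582 to 0.937) and 0.661 (0.522 to 0.833) there. Hspa5 was at 1.05 (0.928 to 1.19) in plasma cells. Pdia4 had the other order in the 5 main classes where it had 50 UMIs. Its ratios there ran from 1.14 (0.96 to 1.36) in fibroblasts to 2.61 (1.39 to 5.27) in endothelial cells. Dnajc3 ran from 0.826 to 1.15 over the 6 main classes.

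Serpinh1 (HSP47), which folds collagen, was at 652 and 353 CPM in fibroblasts (1.85) and at 202 and 79.7 CPM in tumor cells (2.53), where free RNA held 222 and 80.5 CPM. The ER J-domain genes differed little in tumor cells. Dnajc3 had 146 CPM in tumor cells of either library, Dnajb11 had 45.7 and 47.4 CPM and Dnajb9 had 47.8 and 39.8 CPM. The HSP110 of the ER, Hyou1, had few UMIs, with 17.7 and 13.6 CPM in tumor cells and a highest ratio of 1.94 in fibroblasts. Dnajb9 went the other way in T/NK cells, where it was at 21.1 and 37.6 CPM, from 44 and 54 UMIs, a ratio of 0.563 (0.369 to 0.854).

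Ratios below 1 were found for 8 of 38 members in tumor cells, 8 of 37 in macrophages, 4 of 32 in T/NK cells, 5 of 37 in fibroblasts, 13 of 30 in neutrophils and 2 of 29 in endothelial cells, and the interval lay below 1 for 6, 2, 2, 3, 1 and 0 of them. In tumor cells, after Hspb1, they were led by Hspb8 (1.08 and 1.89 CPM, 0.571), Hsf2 (0.873, 0.765 to 0.996), Bag1 (118 and 131 CPM, 0.903, 0.868 to 0.939) and Hspa9. Of these, Hspb8 turned to 1.08 with classes from clusters, and Hsf2 to 1.26 and Bag1 to 1.01 when thinned to 1000 UMIs. In macrophages Dnaja2, at 101 and 120.2 CPM (0.838, 0.776 to 0.905), and Hspa9 (0.898, 0.817 to 0.987) had intervals below 1, while those of Hsf2, Dnajb9 and Hsf1 held 1. In T/NK cells Dnajb9 and Hspa9 (78.8 and 101 CPM) had intervals below 1, and Dnajc3 (0.672 to 1.02) and Bag1 (0.789 to 1.13) did not. In fibroblasts Dnaja2 (106 and 126 CPM, 0.84) did, as did Hspb8 and Hspb1, which turned with classes from clusters as given above. In neutrophils Bag1, at 110.4 and 144 CPM (0.765, 0.599 to 0.977), did, and Fkbp4, Dnaja2, Dnajb11 and Hspa4 did not. In endothelial cells only Dnaja2 (0.847) and Dnajb4 (0.965) were below 1 among members with 50 UMIs, each with an interval that held 1. The share of all genes with a ratio or interval below 1 was not counted, so nothing is read from these counts. The median ratio over all genes ran from 0.929 in neutrophils to 1.05 in fibroblasts.

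Of 21 further genes of the ER and the unfolded protein response, 0 were past 2-fold in tumor cells, with a median ratio of 1.13. In macrophages 2 of 20 passed, Sdf2l1 (92.3 and 43.1 CPM) and the stress transcription factor Ddit3 (51.4 and 22.8 CPM). Ddit3 was also past 2-fold in fibroblasts (75.6 and 34.5 CPM, 2.19) and neutrophils (141 and 62.2 CPM, 2.27), but had 95.5 and 90.6 CPM in tumor cells. Dnajc10 was past it in the other direction in neutrophils (21.5 and 45.5 CPM, 0.472). Among 28 further cytosolic chaperones, including the 8 subunits of the TRiC chaperonin, the median ratio ran from 0.986 in macrophages to 1.21 in fibroblasts. Only Dnaja4 was past 2-fold in flox, in tumor cells (32.5 and 7.83 CPM), macrophages, T/NK cells and fibroblasts. Dnajc7 was past it in the other direction in neutrophils (33 and 67.7 CPM, 0.487). Cct2, a TRiC subunit, was at 252 and 297 CPM in tumor cells.

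Some immediate-early genes were also higher in flox, and others were not. Of a list of 17, 1 was past 2-fold in flox in tumor cells, 2 in macrophages, 3 in T/NK cells, 1 in fibroblasts, 5 in neutrophils and 2 in endothelial cells, and 1 (Klf4, in neutrophils) was past it in the other direction. The shares of all genes past 2-fold in flox, given above, were 1.94%, 3.26%, 2.72%, 4.01%, 3.92% and 3.71% in that order of classes. The median ratio was 1.34 in tumor cells, 1.39 in macrophages, 1.19 in T/NK cells, 1.2 in fibroblasts, 1.56 in neutrophils and 1.52 in endothelial cells. Jun, of the AP-1 factor, was at 2511 and 1105 CPM in tumor cells and at 673 and 198 CPM in T/NK cells, while Klf4 was at 561 and 645 CPM in tumor cells and 319.9 and 534 CPM in macrophages. Neutrophils, whose ratios compare different clusters as given above, had the highest median of the immediate-early genes and the lowest of the chaperones. Tissue handling can raise both kinds of gene. Its part in these differences was not tested, and with 1 library a group it cannot be told apart from genotype.

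To compare how many barcodes carried a gene, each was thinned to 1000 UMIs. A UMI of Hspa1a was then found in 49.4% (47.3 to 51.5) of 2158 flox macrophages and 9.33% (8.06 to 10.7) of 1908 in the library labelled MCT1-KO. Before thinning the shares were 70.9% and 24.1%, at median depths of 6128 and 4885 UMIs. In T/NK cells the thinned shares were 25.6% (21.8 to 29.7) and 1.73% (0.699 to 3.54). Tumor cells, whose Hspa1a lay under the free RNA level, had 3.78% and 0.123% with median depths of 17074 and 15474 UMIs. Scaled by acinar markers, free RNA would be 12.9% and 4.62% of tumor cell UMIs but 33.3% and 9.92% of those of macrophages and 40.1% and 12.4% of those of T/NK cells, so the tumor share is no measure of the background there. Thinning left out 155 and 67 macrophages, and 14 and 25 T/NK cells.

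Dnajb1 was found in 48.1% (45.9 to 50.2) of flox tumor cells and in 16.6% (15.5 to 17.8) of the others, and Hsph1 in 25% (23.2 to 26.9) and 3.16% (2.64 to 3.75). Neutrophils had thinned Hsph1 shares of 4.57% and 0.462%, with 51 and 245 of their barcodes left out. Hspb1 was found in 41.9% (35.3 to 48.8) of flox fibroblasts and in 55.5% (49.6 to 61.3) of fibroblasts labelled MCT1-KO.

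Among flox macrophages and tumor cells, barcodes that held a UMI of a leading inducible member held more UMIs of several others. Flox macrophages thinned to 1000 UMIs were divided into 1066 with and 1092 without a UMI of Hspa1a. Barcodes with Hspa1a held 3.60 (2.98 to 4.39) times as many Hsph1 UMIs, 3.02 (2.31 to 3.98) times as many of Bag3, 2.68 (2.47 to 2.92) times as many of Hsp90aa1 and 2.11 (1.66 to 2.70) times as many of Hspd1. Hspa9 (1.05, 0.762 to 1.45), Bag1 (0.988) and Hsp90b1 (0.919) were about even. Of 32 members with 50 UMIs, 14 had an interval above 1 and 0 had one below, against 7.18% and 8.59% of all 5015 genes. In macrophages labelled MCT1-KO, where 178 barcodes had a UMI of Hspa1a, 2 of 27 did (3.26% of all genes, with 2.98% below and 0 members), Hsp90aa1 at 1.71 (1.35 to 2.14) and Hspa8 at 1.24 (1.09 to 1.41). Hsph1 there had too few UMIs to be counted (8 with and 17 without Hspa1a), but its ratio of 4.57 (1.71 to 11.2) was also above 1, and so was that of Cryab at 5.72 (2.34 to 13.2). Whether the libraries differ in this was not tested.

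Flox tumor cells divided by Dnajb1 gave 2.48 (2.10 to 2.92) for Hsph1, 2.34 (1.80 to 3.07) for Hspa1b, 2.29 (1.94 to 2.72) for Cryab and 1.96 (1.85 to 2.07) for Hsp90aa1, with Hspa9 at 0.866 (0.667 to 1.12). Of 32 members 13 had an interval above 1 and 0 below, against 5.25% and 6.49% of all genes. In tumor cells labelled MCT1-KO the same ratios were 1.58 (1.03 to 2.37) for Hsph1, 1.21 (0.679 to 2.04) for Hspa1b, 1.04 (0.836 to 1.28) for Cryab and 1.11 (1.02 to 1.21) for Hsp90aa1. There 4 of 33 members had an interval above 1 and 2 below, against 3.95% and 3.55% of all genes. These are values over barcodes of 1 library, not replicates, and free RNA taken up by some barcodes more than others also gives such ratios. Clusters of a class also differed within flox. Macrophages of cluster 1 had 1364 CPM of Hspa1a and 309 CPM of Hsph1, and those of cluster 4 had 332 and 69 CPM. The division was not repeated within clusters.

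**Figure D5:**
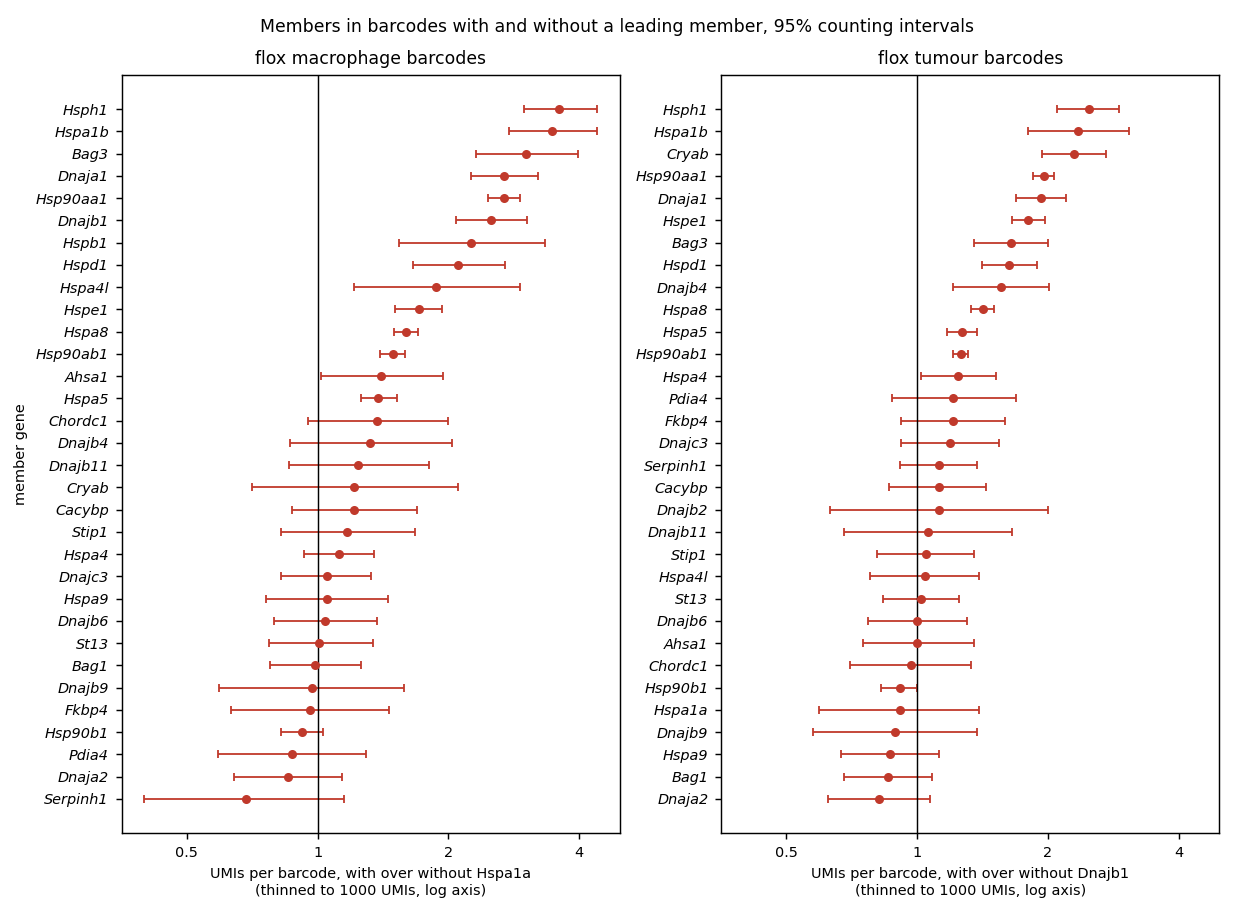
UMIs per barcode of each member in barcodes with over barcodes without a UMI of Hspa1a (flox macrophages, left) or Dnajb1 (flox tumor cells, right), thinned to 1000 UMIs, on a log axis with 95% counting intervals. Hsph1 lies highest on both sides, at 3.60 and 2.48, and Hspa9 lies near 1.

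Free RNA held the same order between libraries as the cells, with Hspa1a at 253 and 20.1 CPM, Hsph1 at 219.7 and 18.4 CPM, and Dnajb1 at 758 and 166 CPM. Scaled by acinar markers, free RNA would make up 33.3% of flox macrophage UMIs and 62.6% of those of flox neutrophils, against 9.92% and 28.8% in the other library. Scaled by Col1a1, Col1a2 and Col3a1, an alternative chosen after seeing the data, it would be 13.9% and 14.7% in flox and 13.5% and 14.8% in the other. With the acinar share subtracted no Dnajb1 was left in flox macrophages or T/NK cells, whereas with the collagen share its ratios were 5.14 and 3.23. Hspa1a in macrophages had ratios of 11.2 and 9.02, and in T/NK cells of 25.8 and 21.9. Cryab and Serpinh1 in flox macrophages lay at 0.108 and 0.102 of free RNA, below both estimates of the share.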

How the data were processed

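The deposited values are raw UMI counts per gene and barcode, before any barcode filter. According to the methods, reads passed through Fastp and then SeekOneTools. The methods and the submitters' processing notes name the human build GRCh38 (and Seurat 4.0.0), although all gene identifiers are mouse Ensembl ones, and which build was really used remains unknown. The labels name the SeekOne MM 3′ microwell kit, the methods another. The other deposited files hold gene identifiers and barcodes. Coordinates are from GENCODE vM21 (GRCm38), where all 38 identifiers matched.

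The members, gene lists and tests were chosen with earlier results of these data known. Barcode filters are given above. A barcode was classed by at least 3 distinct markers and a marker share of at least 2 times (macrophage, acinar) or 8 times (other classes) that in the free RNA of the library where it was higher. It was a tumor cell with at least 3 tumor markers and other markers at no more than 0.5 times their free RNA share, and otherwise unclassified (2560 and 3529 barcodes). These thresholds were set after seeing the data. T/NK cells include the CD8 subset. Doublets were not called, and 77 and 97 barcodes also met a second class.

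UMIs were summed per class and library with pandas 2.3.3 and numpy 2.4.6, intervals were taken from scipy 1.17.1, clusters from scanpy 1.11.5 and figures from matplotlib 3.10.9, all in python 3.11.15. With 1 library per group no p-value, standard error or test is given. Picked for each class were the 5 members with the highest level and the 5 with the largest ratio in each direction. Not all of their values are printed above. Among those left out were Serpinh1 in T/NK cells (3.8, at 0.119 of free RNA in flox) and Cryab in neutrophils (2.5). In endothelial cells Hspa1b (4.94), Dnajb1 (3.1) and Hsp90aa1 (2.85) were left out. Others left out had ratios below 1, such as Hspa9 (0.879) and Hsf1 (0.907) in fibroblasts. Ranges over classes are given for some of the members only. The ratio interval was run on simulated Poisson counts for macrophages, the model it assumes, and held the true ratio for 95.7% of 11157 genes. This checks the calculation only, and not variation between barcodes, animals or tumors. Alternatives changed the limits on UMIs, genes and mitochondrial share, free RNA, the total, cell weights, depth, classes, second-class barcodes, the fold and the UMI minimum.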

Additional observations from a re-analysis of the deposited data

Results flagged for a closer look

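Hspb1 had opposite orders in different classes. Its ratio, flox over MCT1-KO, was 0.366 (0.315 to 0.423) in tumor cells and 5.29 (4.36 to 6.47) in macrophages, and the difference between the classes was not tested. With classes from clusters the tumor cell ratio was 1.59, so the orders were then not opposite, and the macrophage ratio ran from 4.33 to 135 over the alternatives, the highest with collagen-scaled free RNA subtraction. In both classes Hspb1 lay below the free RNA level of its library (0.0807 and 0.228 of it in tumor cells, 0.713 and 0.139 in macrophages).

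Hsp90b1 was lower in flox in plasma cells, at 0.556 (0.510 to 0.606), and higher in fibroblasts, at 1.57 (1.47 to 1.69), a difference that was likewise not tested. The plasma class held 32 and 57 barcodes, of which 13 in each library also met a second class.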

How the results depend on the processing

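Of 1859 member ratios recomputed under alternatives, 85 fell on the other side of 1, of which 29 of 198 under acinar-scaled free RNA subtraction, 19 of 203 with classes from clusters and 13 of 203 with cells weighted equally. Among them were 8 of members that had been past 2-fold. Under acinar-scaled free RNA subtraction the ratio of Hspa1a became 0 in tumor cells and 0 in neutrophils, that of Dnajb1 0 in macrophages and 0 in T/NK cells, that of Hsph1 0 in neutrophils and that of Serpinh1 0 in macrophages, since no flox UMIs were left, and that of Hspe1 became 0.867 in macrophages. With classes from clusters Hspb1 in tumor cells became 1.59. The neutrophil sums became 0.404 (cytosol) and 0.119 (mitochondria) under that subtraction. Of 491 recomputed ratios of members that were past 2-fold, 461 stayed past it. The median cytosolic ratio of 1.68 became 1.61 with no upper gene limit, 1.60 with classes from clusters, 1.75 with free RNA subtracted and 1.58 without Hspa1a and Hspa1b, and the mitochondrial one of 1.85 became 1.51 with free RNA subtracted. At a fold of 1.5 the counts of members were 18, 21, 16, 20, 7 and 14 (tumor cells, macrophages, T/NK cells, fibroblasts, neutrophils, endothelial cells). At a fold of 2 fibroblasts had 7 with classes from clusters against 11. Neutrophils had 0 with free RNA subtracted, 1 with the collagen-scaled subtraction (chosen after seeing the data) and 1 with a minimum of 200 UMIs, and endothelial cells 5 with that minimum. Thinned to 500 UMIs, Hspa1a was found in 35.9% and 5.06% of macrophages and in 16.7% and 0.699% of T/NK cells (flox and MCT1-KO), and Dnajb1 in 33.0% and 8.79% of tumor cells. No paired analysis was possible because each group has 1 library, and for the same reason no replicate could be left out. Members under 50 UMIs in a class were not counted there.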
